A study of Mus musculus with 2 samples.

Results

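The genes described here make and protect telomeres, the repeated DNA at chromosome ends. They are Tert, Terc and Dkc1 of telomerase, the shelterin genes Terf1, Terf2, Pot1a, Pot1b, Tinf2 and Acd, and Rif1. These 10 genes were chosen by symbol, and all 10 were found among the 43346 annotated genes of the tables. The data are total RNA-seq of ES-E14, an embryonic stem cell line from a male 129/Ola mouse embryo, with 2 libraries forming 1 group, marked as biological replicates 1 and 2. The labels name no treatment or genetic change. They cite the same source sample for both libraries, and the spread reported here may thus be of technical origin. With 1 group there was no comparison between conditions, and with 1 library on each side no test between libraries. Levels are in TPM (a share of all transcripts corrected for length), in the order replicate 1, replicate 2, and errors are the SD over n = 2 libraries.

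Telomerase is a ribonucleoprotein. The catalytic protein TERT, a reverse transcriptase, copies a template within the RNA Terc onto the chromosome end, and dyskerin, the product of Dkc1, binds and stabilises Terc through its H/ACA domain. Shelterin covers the telomeric repeats. TRF1 and TRF2 (Terf1, Terf2) bind duplex repeats, POT1 binds the single-stranded overhang, TPP1 (Acd) holds POT1 and recruits telomerase, and TIN2 (Tinf2) joins these parts. The mouse carries a pair of POT1 genes, Pot1a and Pot1b. RIF1 was named for a yeast telomere protein, but in mammals it is known for replication timing and the choice of DNA repair pathway. Telomerase activity is a known feature of embryonic stem cells.

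The template identifies Terc, so the ends of its annotated transcript are shown first, from GENCODE M21 on GRCm38 (mm10), written as DNA. The gene has 1 exon of 423 bases on the minus strand of chromosome 3, chr3:96414437-96414859. The first line holds bases 1 to 60 and the second bases 364 to 423, with genome positions chr3:96414800-96414859 and chr3:96414437-96414496. Capitals mark the match to the complement of the telomeric repeat (CTAACCCT, searched in the whole RNA) and the last ACA, the element that gives H/ACA RNAs their name.

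Terc first bases: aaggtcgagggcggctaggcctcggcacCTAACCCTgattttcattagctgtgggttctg
Terc last bases: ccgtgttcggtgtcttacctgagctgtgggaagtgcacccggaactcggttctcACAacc

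The repeat complement occurred once in the annotated Terc, at bases 29 to 36, and not at all on the other strand. Where the RNA itself begins and ends in these cells was not tested. The marked ACA lay at bases 418 to 420, leaving 3 bases to the annotated end. Terc had a GC content of 67.1%, and it shared no 40-base word with the transcripts of any other gene in M21.

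Terc was far more abundant than the messenger RNAs of the other 9 genes. It stood at 210.17 and 159.36 TPM (mean 184.8 ± 35.9 TPM, SD, n = 2), on 4356 and 3108 expected counts. Because Terc is short, its effective length, the number of positions at which a fragment can start, was 266.81 and 263.35 bases. The label gives a size range of 300 to 350 without a unit. Fragments of that many bases would leave Terc a smaller effective length than the one deposited. What the range measures was not tested. The TPM of a short RNA rests on its small effective length as divisor, here taken from the annotated 423 bases. The level of Terc against long genes is therefore less certain than its counts. Replicate 1 was the higher library for Terc on every scale examined, though these scales share the same reads.

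Tert, on chromosome 13 (chr13:73626911-73649843, plus strand), was low but detected in both libraries at 2.59 and 1.69 TPM (2.14 ± 0.636 TPM, SD, n = 2). These values rested on 659 and 410 expected counts, all on Tert-201. They placed Tert at the 64.4th and 56.1st percentile of protein-coding genes. Terc thus stood 81.1-fold above Tert in replicate 1 and 94.3-fold in replicate 2 on the TPM scale, and 6.61-fold and 7.58-fold in expected counts without length correction. The quantified Tert transcript was 3426 bases long, shorter than the 4313 bases of the same transcript in M21.

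Dkc1, on chromosome X (chrX:75095854-75109777, plus strand), stood at 45.93 and 47 TPM (46.5 ± 0.757 TPM, SD, n = 2), at or above percentile 96.6 in both libraries. Dkc1 had the smallest gap between the libraries of all 10 genes in TPM. Dyskerin also serves small nucleolar RNAs and ribosome assembly, as well as Terc. The ratio of Dkc1 to Tert was 17.7 and 27.8 in TPM over all transcripts, where only Tert differed clearly between the libraries. The coding transcripts of Dkc1 did differ, as given below.

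**Figure D1:**
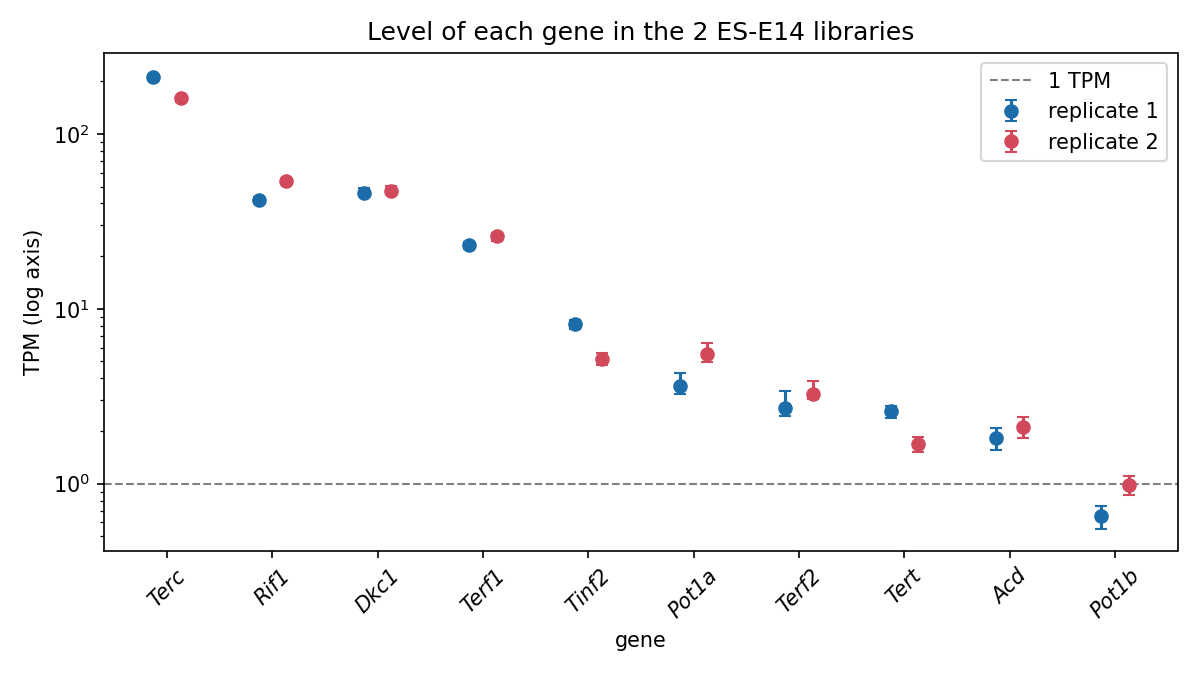
TPM of the 10 genes on a log axis, ordered by mean level, with 1 point per library and bars for the deposited interval bounds of each estimate (level of the interval not stated). Terc stands at 210.17 and 159.36 TPM, Rif1, Dkc1 and Terf1 above 20 TPM, and Pot1b alone below the dashed line at 1 TPM.

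The shelterin genes spanned a wide range of levels. Terf1, on chromosome 1 (chr1:15805646-15844052, plus strand), led them at 23.09 and 25.96 TPM (24.5 ± 2.03 TPM, SD, n = 2). Terf2, on chromosome 8 (chr8:107069400-107096547, minus strand), stood at 2.72 and 3.27 TPM (2.99 ± 0.389 TPM, SD, n = 2). Terf1 exceeded Terf2 8.49-fold and 7.94-fold in TPM over all transcripts of each gene, and 5.79-fold and 4.87-fold in expected counts. Over protein-coding transcripts alone the TPM ratio was 6.22 and 5.28.

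Tinf2, on chromosome 14 (chr14:55674689-55681820, minus strand), stood at 8.16 and 5.18 TPM (6.67 ± 2.11 TPM, SD, n = 2). Acd, on chromosome 8 (chr8:105695860-105701102, minus strand), stood at 1.83 and 2.1 TPM (1.97 ± 0.191 TPM, SD, n = 2), on 180 and 197 expected counts. Among the 6 shelterin genes of this group, Acd was the lowest after Pot1b. In M21, Tinf2 overlaps 1540 exonic bases of Gmpr2 and Acd 1208 of Carmil2, each on the opposite strand. Gmpr2 stood at 3.36 and 3.45 TPM and Carmil2 at 0.48 and 0.22 TPM. Whether reads were counted by strand is not stated in the labels or headers, and the quantified models of Tinf2 (1736 bases) and Acd (1425 bases) were shorter than those of M21 (2956 and 3154 bases), so how far reads were shared was not tested.

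The POT1 genes differed in level. Pot1a, on chromosome 6 (chr6:25743737-25809246, minus strand), stood at 3.61 and 5.49 TPM (4.55 ± 1.33 TPM, SD, n = 2). Pot1b, on chromosome 17 (chr17:55651951-55712628, minus strand), stood at 0.65 and 0.98 TPM (0.815 ± 0.233 TPM, SD, n = 2), on 169 and 243 expected counts. Pot1a exceeded Pot1b 5.55-fold in replicate 1 and 5.60-fold in replicate 2 in TPM over all transcripts, and both genes stood higher in replicate 2. In counts, without length correction, the ratio was 3.14 and 3.39. Over protein-coding transcripts alone the TPM ratio was 3.34 and 3.41, so its size depended on the transcripts counted. The M21 transcripts of the paralogs shared 2 of the 3484 words of 40 bases in Pot1b, and those of Terf1 and Terf2 shared 0. POT1a is known for holding back the DNA damage response at telomeres, and POT1b for limiting the resection of the end.

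The promoters of this pair are shown because the ratio of the paralogs differed little between the libraries on each of these scales. Such a steady ratio was not particular to paralogs, since Terf1 to Acd stood at 12.6 and 12.4 in TPM. Shared regulation of the pair was not tested. The promoters are the RefSeq sequences on GRCm38.p6, 300 bases each on the minus strand. That of Pot1a lies at chr6:25809169-25809468. That of Pot1b lies at chr17:55712587-55712886, the first of 2 that the table lists for Pot1b. Capitals mark the longest run that both hold in the same orientation.

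Pot1a promoter: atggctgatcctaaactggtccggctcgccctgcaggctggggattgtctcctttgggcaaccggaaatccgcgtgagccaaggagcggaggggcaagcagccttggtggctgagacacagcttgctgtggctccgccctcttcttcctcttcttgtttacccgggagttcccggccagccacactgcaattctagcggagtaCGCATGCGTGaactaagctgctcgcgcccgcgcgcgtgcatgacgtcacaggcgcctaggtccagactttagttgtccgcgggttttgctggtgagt
Pot1b promoter: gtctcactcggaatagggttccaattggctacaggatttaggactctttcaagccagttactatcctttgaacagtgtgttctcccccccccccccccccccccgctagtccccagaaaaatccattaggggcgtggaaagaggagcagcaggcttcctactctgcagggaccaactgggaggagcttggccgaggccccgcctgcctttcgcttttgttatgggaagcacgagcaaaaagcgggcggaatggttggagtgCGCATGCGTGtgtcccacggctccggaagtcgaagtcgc

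The shared run, CGCATGCGTG, has 10 bases and begins 47 bases before the start site of Pot1a and at base 12 after that of Pot1b. On either strand it was found in 116 of the 32851 promoters of the table (0.353%), and in no other of the 7 genes of this group whose promoter was listed. The run was chosen after the sequences were compared. A match describes the letters and shows no binding.

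Tert encodes the catalytic subunit and stood lower in replicate 2 on every scale given below, though these scales share the same reads. Its promoter follows, from RefSeq on GRCm38.p6 at chr13:73626661-73626960, plus strand. Capitals mark the GC box, the binding motif of SP factors (GGGCGG on either strand).

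Tert promoter: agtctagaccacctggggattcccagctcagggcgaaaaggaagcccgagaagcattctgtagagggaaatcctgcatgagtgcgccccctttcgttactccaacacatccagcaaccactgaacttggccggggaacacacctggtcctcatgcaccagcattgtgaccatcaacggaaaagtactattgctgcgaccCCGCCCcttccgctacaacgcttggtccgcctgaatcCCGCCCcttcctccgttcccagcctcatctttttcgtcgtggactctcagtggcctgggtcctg

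The GC boxes of Tert began 51 and 14 bases before its start site. The motif occurred in 35.7% of all promoters and in 4 of the 7 listed here, Tert, Terf2, Pot1a and Pot1b. The E-box CACGTG, bound by MYC and related factors, was in none of these 7 windows and in 7.15% of all. The cAMP response element TGACGTCA was in Pot1a and Tinf2, against 1.79% of all promoters.

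Rif1, on chromosome 2 (chr2:52072832-52122383, plus strand), had the highest mean level of the 9 protein-coding genes, at 41.86 and 53.85 TPM (47.9 ± 8.48 TPM, SD, n = 2). Its long transcripts drew 17408 and 23139 expected counts, the most of the group. By mean TPM the order was Rif1, Dkc1, Terf1, Tinf2, Pot1a, Terf2, Tert, Acd and Pot1b. Neighbours whose ranges over the libraries overlapped, and so did not differ beyond their spread, were Rif1 and Dkc1, Tinf2 and Pot1a, and Tert and Acd. Every other neighbour in this order had separate ranges, which with 2 libraries is a description only. The order rests on all transcripts of each gene. Over protein-coding transcripts alone, Rif1 and Dkc1 had separate ranges, as did Tinf2 and Pot1a. On that measure Pot1a (2.17 and 3.34 TPM), Terf2 (1.82 and 2.41 TPM) and Tert (2.59 and 1.69 TPM) overlapped. Acd (1.83 and 2.1 TPM) lay within the ranges of Terf2 and Tert and below that of Pot1a.

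Of the 10 genes, 9 reached 1 TPM in both libraries, the limit used here for detection, against 46.3% of 21474 protein-coding genes. The 9 include Terc, which is not protein-coding and so has no like in that background. Pot1b was under the limit in both, and it passed at a limit of 0.5 TPM and with TPM rescaled to protein-coding genes (3.48 and 4.28 TPM on that scale). Small nucleolar RNAs took 31.8% and 21.3% of all TPM, and protein-coding genes 19.4% and 23.8%, so a limit in TPM is strict for messenger RNAs.

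None of the 10 genes was 2-fold apart between the libraries. Of the 11284 genes that averaged at least 1 TPM, 7.37% were at least 2-fold higher in replicate 2 and 1.53% at least 2-fold lower. The median difference of the 10 genes was 0.15 on the log2(TPM + 1) scale, replicate 2 minus replicate 1, beside 0.23 for 10473 protein-coding genes. Its sign depended on the scale, at -0.11 with TPM rescaled to protein-coding genes, -0.0143 with TMM factors and 0.005 with DESeq2 size factors. This scale understates the differences of low genes.

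Tinf2, Tert and Terc stood lower in replicate 2, by a factor of 1.58, 1.53 and 1.32 in TPM. They did so on all 6 scales examined, as did Pot1a, Pot1b and Rif1 in the other direction. These scales share the same reads and are not independent checks. FPKM and rescaled TPM shift the log2 TPM ratio of every gene down by a common amount. A gene lower in replicate 2 in TPM was therefore bound to be lower on them. On the log2 scale the ratio of replicate 2 over replicate 1 ranged over these scales from -0.96 to -0.65 for Tinf2, from -0.91 to -0.61 for Tert and from -0.72 to -0.40 for Terc. For Pot1a it ranged from 0.31 to 0.60, for Pot1b from 0.30 to 0.59 and for Rif1 from 0.07 to 0.36. The other 4 genes, Dkc1, Terf1, Terf2 and Acd, changed sign with the scale.

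**Figure D2:**
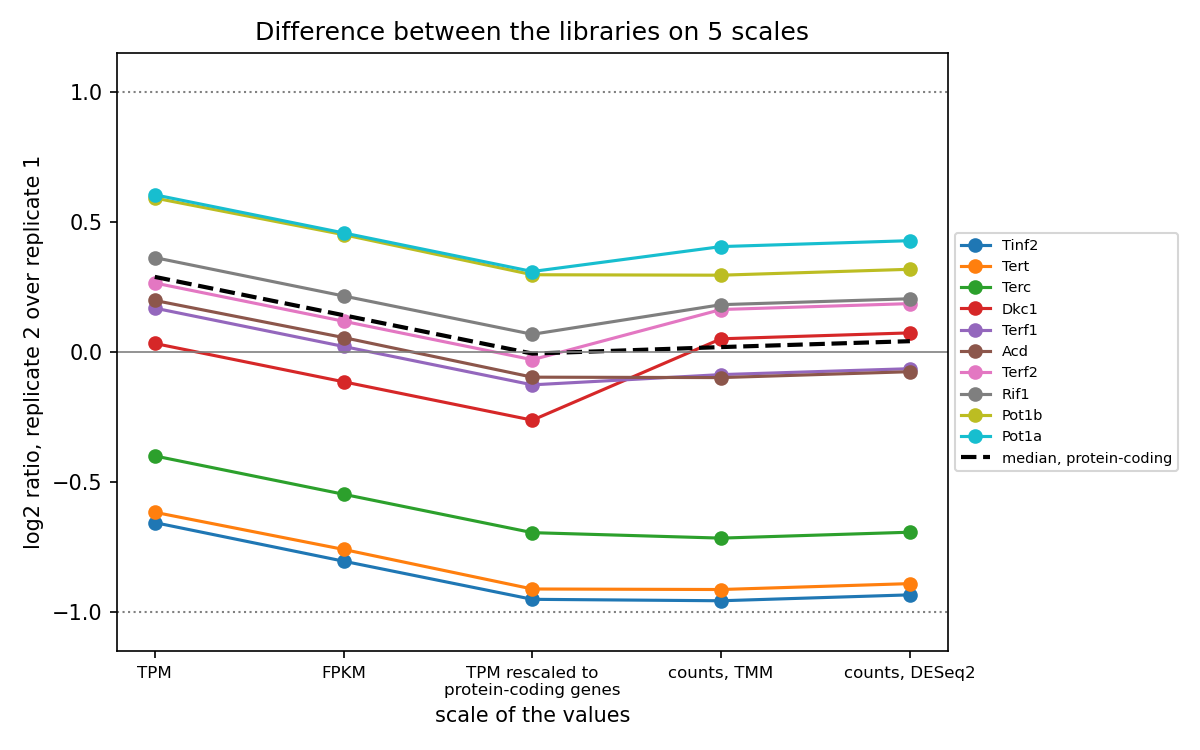
Log2 ratio of replicate 2 over replicate 1 for each gene (coloured lines) on 5 scales, with the median of protein-coding genes as a black dashed line and dotted lines at 2-fold. Tinf2, Tert and Terc lie below 0 and below the median on each scale, Pot1a and Pot1b above both, and no gene reaches a dotted line.

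The deposited intervals of the estimates, which cover uncertainty of counting and read assignment within a library, did not overlap between the libraries for 7 of the 10 genes. Of these, 4 were higher in replicate 2 (Rif1, Terf1, Pot1a and Pot1b), where 50.0% of all 11284 genes had separate intervals in that direction. The other 3 were lower (Terc, Tert and Tinf2), where 13.2% had. Separate intervals were thus common, and they contain no spread between cultures.

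The ratio between the libraries also moved with GC content across protein-coding genes. GC content here is that of the leading transcript of each gene, with its sequence from M21. For Tert, Tinf2 and Acd that sequence is longer than the quantified model, as given above, so their GC classes are less certain. The median log2 TPM ratio was 0.51 in the lowest of 10 equal GC classes and -0.0019 in the highest. Tert (53.6% GC) stood at -0.62 where the median of its class was 0.20, and Tinf2 (51.6% GC) at -0.66 where that median was 0.29. Within their own class, 6.50% of genes had a lower ratio than Tert and 4.68% a lower ratio than Tinf2. Terc, in the highest GC class, stood at -0.40, and 23.3% of the protein-coding genes of that class had a lower ratio. Pot1a and Pot1b (43.5% and 44.8% GC) stood at 0.60 and 0.59, beside a median of 0.47 in their class. Rif1, the gene with the lowest GC content here at 39.3%, stood at 0.36, under the 0.51 of its class, where 35.9% of genes had a lower ratio. Within their class, 62.5% of genes had a lower ratio than Pot1a and 61.0% a lower ratio than Pot1b. Dkc1 stood at 0.033 and Terf1 at 0.17, under the 0.47 and 0.39 of their classes, where 14.5% and 29.0% of genes had a lower ratio. Terf2 (0.27) and Acd (0.20) stood above the 0.20 and 0.072 of theirs. The part of GC content in these differences was not tested.

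Marker genes also differed between the libraries. All 8 stem cell markers passed 1 TPM in both, and 5 of the 8 stood higher in replicate 2. The summed level of these markers was 1021 and 1081 TPM, of which Dppa5a gave 613.37 and 597.01 TPM. Single markers moved both ways, with Nanog at 17.19 and 31.91 TPM and Fgf4 at 51.43 and 33.93 TPM. The summed level of 10 fibroblast markers was 137.4 and 458.1 TPM. Of the 10, 8 were at least 2-fold higher in replicate 2, beside 7.37% of all genes that averaged at least 1 TPM. The 8 include Postn (0.21 and 0.64 TPM) and Dcn (0.06 and 0.19 TPM, 8 and 24 counts), which averaged under 1 TPM. Thy1 was lower in replicate 2, at 2.27 and 1.62 TPM, and Lum stood at 0 in both. Vim alone gave 88.91 and 301.94 TPM of that sum, and 6 of the 10 markers passed 1 TPM in both libraries. The sum of 5 blood markers was 6.79 and 16.1 TPM, with Hbb-bs at 0 in both and Ptprc at 0 and 0.12 TPM. The immunoglobulin genes Ighm (0.26 and 5.27 TPM) and Igkc (0.39 and 5.37 TPM) made up the difference, while Cd68 stood at 6.14 and 5.3 TPM. In bulk RNA, fewer cells of a type and less RNA per cell cannot be told apart. The part of other cell types in the differences of Tert, Terc and Tinf2 was not tested.

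Of the 10 genes, 5 had several transcripts in the tables, and the leading transcript was the same in both libraries for all 5, against 85.8% of 7815 protein-coding genes with several transcripts. Much of the TPM of Dkc1 and Terf1 lay outside protein-coding transcripts. Protein-coding transcripts took 34.99% and 49.4% of Dkc1 TPM and 49.0% of Terf1 TPM in each library. The median over those 7815 genes was 82.4% and 85.9%. For Rif1 the share was 63.1% and 74.9%, for Pot1a 60.1% and 60.9%, and for Terf2 67.2% and 73.5%.

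The coding transcripts of Dkc1 stood 1.45-fold higher in replicate 2, while the gene total in TPM was nearly equal. Higher values in replicate 2 were common. The median log2 TPM ratio of gene totals was 0.29 over protein-coding genes and 0.47 in the GC class of Dkc1, where Dkc1 stood at 0.033. Dkc1-201, with 15 exons and 2804 bases, stood at 15.64 and 22.81 TPM, and its deposited intervals were 14.7 to 16.1 and 21.7 to 23.3 TPM. The short noncoding Dkc1-211, with 4 exons and 551 bases, stood at 11.12 and 7.46 TPM, with overlapping intervals of 8.15 to 13.1 and 4.80 to 9.78 TPM. In expected counts, Dkc1-201 took 71.2% and 81.4% of the gene. A short transcript gains TPM from few reads, since Dkc1-211 had 340.91 and 216.2 counts against 3217.78 and 4466.6 for Dkc1-201.

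Terf1 was the gene led by a noncoding transcript. Terf1-202, a processed transcript of 7 exons and 968 bases, took 48.1 ± 0.389% of its output (SD, n = 2), and the coding Terf1-201, with 9 exons, 38.4 ± 2.90%. By expected counts the order was the reverse, with 32.2% and 30.8% for Terf1-202 and 47.2% and 41.1% for Terf1-201. Which transcript leads Terf1 therefore depended on the length correction.

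**Figure D3:**
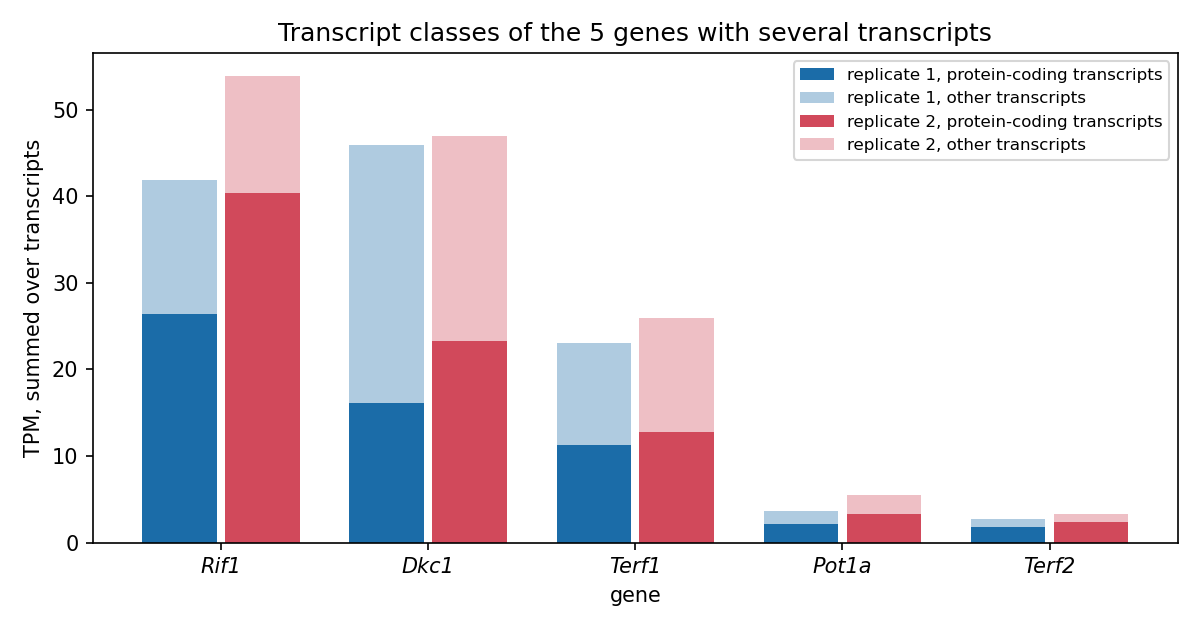
Summed TPM of protein-coding transcripts (solid) and other transcripts (pale) in each library for the 5 genes with several transcripts. The coding part of Dkc1 was 16.1 and 23.2 TPM with a nearly equal total, and that of Rif1 26.4 and 40.4 TPM.

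Rif1-201 led Rif1 at 21.28 and 32.28 TPM, or 50.82% and 59.95% of its output. Its deposited intervals, 18.1 to 21.7 and 21.6 to 31.8 TPM, overlapped, and the value of replicate 2 lay just above its own interval. A further Rif1 transcript of 8497 bases, without a name in M21, had 366.16 and 1.88 counts, and its interval in replicate 2 reached 10.2 TPM. The next by mean TPM was Rif1-205, at 5.04 and 4.51 TPM, which rested on 59.07 and 49.17 counts and an effective length of 150.81 and 147.36 bases. Rif1-203, annotated as a target of nonsense-mediated decay and 3601 bases long, had 1064.68 and 62.66 expected counts. Its deposited intervals, 3.20 to 4.56 and 0.0485 to 0.671 TPM, were separate. Rif1-203 was named after its values were seen.

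Terf2-203 led Terf2 at 35.8% and 36.9%. The next by mean TPM was Terf2-202, at 0.21 and 0.97 TPM with 41.16 and 180.7 counts, while Terf2-204, chosen after its values were seen, had 125.43 and 42.44. These transcripts have 2667 and 2666 bases, and 98.5% of the 40-base words of the former were also in the latter. Their separate values are therefore uncertain, and their sum was 166.59 and 223.14 counts. Pot1a-203, with 18 exons, led Pot1a at 1.16 and 2.55 TPM, with separate intervals of 0.934 to 1.37 and 2.20 to 2.88 TPM. The retained-intron transcript Pot1a-204 followed by mean TPM, at 0.8 and 0.82 TPM on 21.19 and 20.5 counts. Tert, Pot1b, Tinf2, Acd and Terc had 1 transcript each.

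Related genes were taken from 7 lists, with 75 measured genes, of which 70 passed 1 TPM in both libraries, where 46.3% of protein-coding genes did. These lists were drawn up from textbook roles. Of the 75, 5 were at least 2-fold higher in replicate 2 and 0 were 2-fold lower, close to the 7.37% and 1.53% of all genes compared. Their median difference was 0.31 on the log2(TPM + 1) scale, beside 0.23 for protein-coding genes. The remaining shelterin gene, Terf2ip, which encodes the TRF2 partner RAP1, stood at 0.98 and 2.12 TPM on 263 and 539 counts. Terf2ip was 2.16-fold higher in replicate 2, a larger gap than that of any of the 10 genes.

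Of 16 genes for telomerase assembly, 15 passed. By mean TPM the chaperone gene Hsp90aa1 was the highest at 327.44 and 561 TPM, and Tep1, a telomerase-associated protein gene, the lowest at 1.38 and 0.86 TPM. Ptges3, which encodes the co-chaperone p23, was the member 2-fold apart, at 23.99 and 57.31 TPM. The H/ACA partners of dyskerin were also named after their values were seen. Nhp2 stood at 89.66 and 106.84 TPM, Nop10 at 65.12 and 71.13 TPM and Gar1 at 11.84 and 17.18 TPM. Wrap53, which carries telomerase to Cajal bodies, stood at 5.93 and 7.56 TPM.

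All 7 genes for Terc processing passed, from the exosome gene Exosc10 (14.58 and 17.71 TPM) to Zcchc8 (3.22 and 4.31 TPM). All 7 genes of the CST complex and its polymerase, which fill in the strand opposite the telomerase product, passed as well. Ctc1, the largest CST subunit, was the highest by mean TPM at 14.64 and 10.83 TPM, and Ten1 the lowest at 3.27 and 4.06 TPM.

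Of 19 genes for telomere replication and processing, 16 passed. Tnks2, a tankyrase that modifies TRF1, led at 90.05 and 76.02 TPM, and Fbxo4, a ubiquitin ligase subunit known to act on TRF1, was the lowest by mean at 0.55 and 1.16 TPM. Fbxo4 and the kinase gene Nek7 (1.44 and 3.14 TPM) were 2-fold apart. The helicase gene Rtel1, which unwinds the telomeric loop, stood at 39.28 and 29.98 TPM, named after its values were seen.

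All 9 measured genes of the RIF1 pathway passed, from the phosphatase gene Ppp1ca (64.05 and 92.91 TPM) to the shieldin gene Shld2 (1.59 and 1.61 TPM). All 16 genes of the list on alternative lengthening and chromatin passed, with the histone gene H3f3b at 98.83 and 181.4 TPM as the highest and the pocket protein gene Rbl2 at 1.95 and 1.56 TPM as the lowest. Cbx3, a heterochromatin protein gene, was 2-fold apart at 19.03 and 39.7 TPM.

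**Figure D4:**
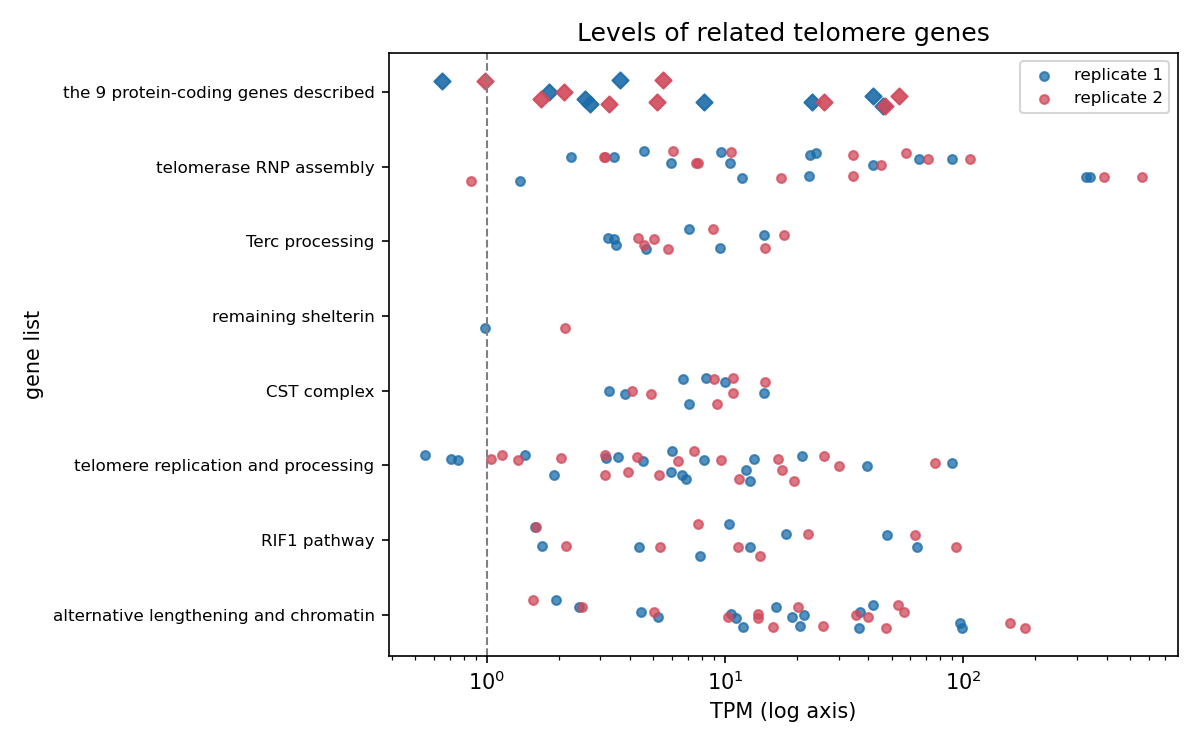
TPM on a log axis for the 7 lists of related genes and for the 9 protein-coding genes described here (diamonds), with 1 point per gene and library and a dashed line at 1 TPM. Of the 75 related genes, 70 lie right of the line in both libraries.

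Terc was also set beside other short RNAs. Of 19 on the list, 7 had an effective length of 100 bases or more in both libraries, and 4 of these were higher in replicate 2 and 3 lower. Rmrp, the highest, stood at 81188 and 90739 TPM. The lower ones were Scarna2 (1524.5 and 968.53 TPM), Scarna13 (1122.68 and 752.38 TPM) and Scarna6 (630.07 and 315.64 TPM). Scarna10 (356.79 and 381.66 TPM), a Cajal body RNA like these, was among the 4 higher ones. Snora81 (107.04 and 47.6 TPM, effective length 22.83 and 19.48 bases) and Snora21 (2634.64 TPM and listed at 0) were 2-fold lower in replicate 2. The value of 0 went with 133 expected counts and an effective length of 0, so TPM of the shortest RNAs cannot be read as abundance. The lowest by mean were 8 RNAs listed at 0 in both libraries, such as Snora64, which had 344.89 and 114.4 counts. The effective length of Terc was above that of all 7 in both libraries.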

How the data were processed

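Total RNA of 2 libraries was analysed. Per the file headers, the authors deposited expected counts, TPM, FPKM, effective lengths, posterior mean TPM with interval bounds (used here as signal values) and each transcript's percent of its gene. Per the deposited text file, the tables rest on transcriptome alignments to mm10 with the M4 annotation. The labels and headers name neither the aligner nor the quantifier. Expected counts summed to 43163300 and 45573500, and were rounded only for scaling factors.

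Symbols, coordinates and transcript sequences came from GENCODE M21 (42462 of 43346 genes matched) and promoters from RefSeq on GRCm38.p6 (7 of 10 genes). Some transcripts differ in length between M4 and M21. Counts of 2-fold differences over all genes used those with a mean of 1 TPM and an effective length of 100 bases or more. Counts within the further lists used no such filter. Scaling used edgeR 4.0.16 (TMM, genes with 10 counts or more) and DESeq2 1.42.0 in R 4.3.3, and other steps Python 3.11.15, pandas 2.3.3 and matplotlib 3.10.9. The 2-fold count was tried on simulated counts with planted changes larger than 2-fold and no spread between libraries beyond counting noise. This checks the calculation only and lends the result no support.

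The genes and lists were chosen with earlier results of these data known. The rule named all 10 genes, the highest, the lowest and the 2-fold different genes of each further list, and the 2 highest transcripts of each gene. Shld3 had no match and is not analysed here. The GC classes, the shared words of 40 bases and the promoter motifs were added after the data were seen. Left out were 97 spike-in features and 26248 whose identifier is only a number.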

Additional observations from a re-analysis of the deposited data

Results flagged for a closer look

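Features listed only under a number, which no value above rests on, drew 15 expected counts in replicate 2 and 1 in replicate 1. Only the former is past 3, the most that would still be read as a count of 0.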

How the results depend on the processing

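Counts of genes 2-fold apart (0 of 9 with a mean of 1 TPM or more) were unchanged under all 6 alternatives, and the count with the same leading transcript (5) under both. The number detected in both libraries was 9, or 5 at a limit of 5 TPM. The other alternatives, including each library alone, gave 9 or 10. The median difference of the 10 genes, 0.15, was -0.11 when TPM was rescaled to sum over protein-coding genes alone and -0.0143 with TMM factors. The mean Pot1a to Pot1b ratio of 5.58 was 3.27 in expected counts, 5.77 with posterior mean TPM and 3.37 over protein-coding transcripts, an alternative chosen after seeing the data. On that rescaled TPM the log2 ratio turned negative for Dkc1 (-0.26), Terf1 (-0.13), Terf2 (-0.029) and Acd (-0.096). It was -0.11 for Dkc1 with FPKM, -0.087 for Terf1 and -0.098 for Acd with TMM factors, and -0.064 and -0.075 with DESeq2 size factors. The cause was not tested. Depth limits Pot1b (169 and 243 counts) and Acd (180 and 197 counts) most. No paired analysis was possible because there is 1 group.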
